A study of Mus musculus with 6 samples.

Results

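The replication-dependent and variant histone genes were described in G1E-ER-GATA-1 cells that received siRNA against Foxo3 or nontargeting siRNA. The genes were taken by name from a mouse array: every non-control probe named Hist1h, Hist2h, Hist3h or Hist4h at the start, or named H1f0, H1fx, H2afx, H2afy, H2afz, H2afv, H2afj, H3f3a, H3f3b or Slbp. That gave 74 probes of the 55681 on the array, for 59 gene names. Of these, 55 probes stood for 49 replication-dependent genes, 17 probes for 9 variant genes, and 2 probes for Slbp. G1E-ER-GATA-1 is a mouse line of erythroid precursors that has no GATA-1 of its own. Instead it expresses a fusion of this transcription factor to the ligand-binding domain of the estrogen receptor, and added estradiol activates the fusion and starts red cell maturation. Cells of both groups carried this fusion, and both received siRNA at 0 h and 24 h, estradiol at 24 h, and were harvested at 48 h. No group without siRNA or without estradiol was analysed here. Each group had 3 arrays, each hybridised with Cy3-labelled RNA amplified from 0.1 µg. The labels do not say whether replicates came from separate cultures, so the spread behind each p-value may be technical.

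Histones package DNA into nucleosomes: H2A, H2B, H3 and H4 form the core and H1 binds the linker. The replication-dependent genes lie in clusters, generally have no introns, and are expressed mainly in S phase. Their mRNAs end in a short stem-loop rather than a poly(A) tail. Slbp binds that stem-loop, and U7 snRNP directs the cut a few bases past it. Some of these genes also make longer, polyadenylated transcripts that continue past the stem-loop. Most variant genes give polyadenylated mRNAs and are expressed through the cell cycle, while H2afx also makes a stem-loop mRNA. In red cell maturation the cells leave the cell cycle and condense their chromatin. The labelling kit named in the labels starts from poly(A) tails, as background, so the share of the signal that came from transcripts without a tail was not tested.

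The stem-loop shows where along the mRNA a probe reads. The lines below give it, as found within 60-base probes, for an H2A gene, a pair of H3 genes and an H4 gene. Capitals mark the 16 bases of the stem-loop, whose first and last 6 bases pair.
Hist2h2aa1: taaaaaGGCTCTTTTCAGAGCCacccact
Hist1h3a: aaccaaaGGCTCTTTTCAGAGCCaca
Hist1h3g: ctttaaaGGCTCTTCTTAGAGCCaccca
Hist1h4m: aactaaaGGCCCTTTTCAGGGCCatccaa
The Hist1h3a probe ended 3 bases after its stem-loop and the Hist1h3g probe 5 bases after. The Hist2h2aa1 probe ran on for another 38 bases past it.

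Foxo3 itself, a forkhead transcription factor, was read by 2 probes. The probe on the RefSeq transcript had scaled log2 signals of −0.47, −1.29 and −1.89 with Foxo3 siRNA and of 1.20, 1.28 and 1.12 with nontargeting siRNA. The groups did not overlap, the log2 fold change was −2.42 (SE 0.34, adjusted p = 0.0051), and 18.7% of the nontargeting signal was left, with 2 of the 3 Foxo3 siRNA arrays well above background. The other probe, designed on another transcript, had a log2 fold change of 0.26 (adjusted p = 0.24). Spots well above background numbered 20343 to 37532 per array, the lowest on Foxo3 siRNA replicate 3, where 50.2% of spots held a surrogate value against 16.7% to 29.3% elsewhere. All arrays lay on 1 slide: row 1 held Foxo3 siRNA replicate 1 and the 3 nontargeting arrays, and row 2 held Foxo3 siRNA replicates 2 and 3. All 15 probes of 12 erythroid marker genes passed the background filter, the 2 Epb4.2 probes with 2 of the 3 Foxo3 siRNA arrays well above background. The myeloid markers Mpo and Lyz2 did not pass the filter. Of 9 other myeloid probes 0 were called, and 4 had an unadjusted p under 0.05. So did 11569 of all 26991 tested probes. The megakaryocyte genes Itga2b and Gp1ba rose, by log2 fold changes of 1.27 and 0.59, among 4 probes kept of 7. The 2 other kept probes had negative log2 fold changes, the lowest −0.54, and were not called. Of 8 lymphoid probes 5 were kept and 1 fell (Cd79a, which with Foxo3 siRNA was measured above background by 1 array), and of 4 stromal probes 1 was kept and 0 were called. The part of these markers in the results on histones was not tested. In bulk RNA, fewer cells of a type and less RNA per cell cannot be told apart.

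Of the 74 histone and Slbp probes, 67 for 53 genes passed the background filter (every array of 1 group or the other above background) and were tested. Of these, 17 rose, 13 fell and 37 were not called at an adjusted p of 0.05. Over the whole array 25.4% of the 26991 tested probes were called, 12.3% higher and 13.1% lower with Foxo3 siRNA. The groups did not overlap for 43 of the 67, where the share over all tested probes was 49.3%. The calls lay almost wholly among the replication-dependent genes: 16 of their 50 tested probes rose, for 15 genes, and 13 fell, for 11 genes. Of 15 variant probes 1 rose and 0 fell (2 had an unadjusted p under 0.05, beside 11569 of all 26991), and neither Slbp probe was called. The median log2 fold change was 0.080 over the replication-dependent probes and 0.025 over the variant probes, beside −0.15 over all tested probes.

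**Figure D1:**
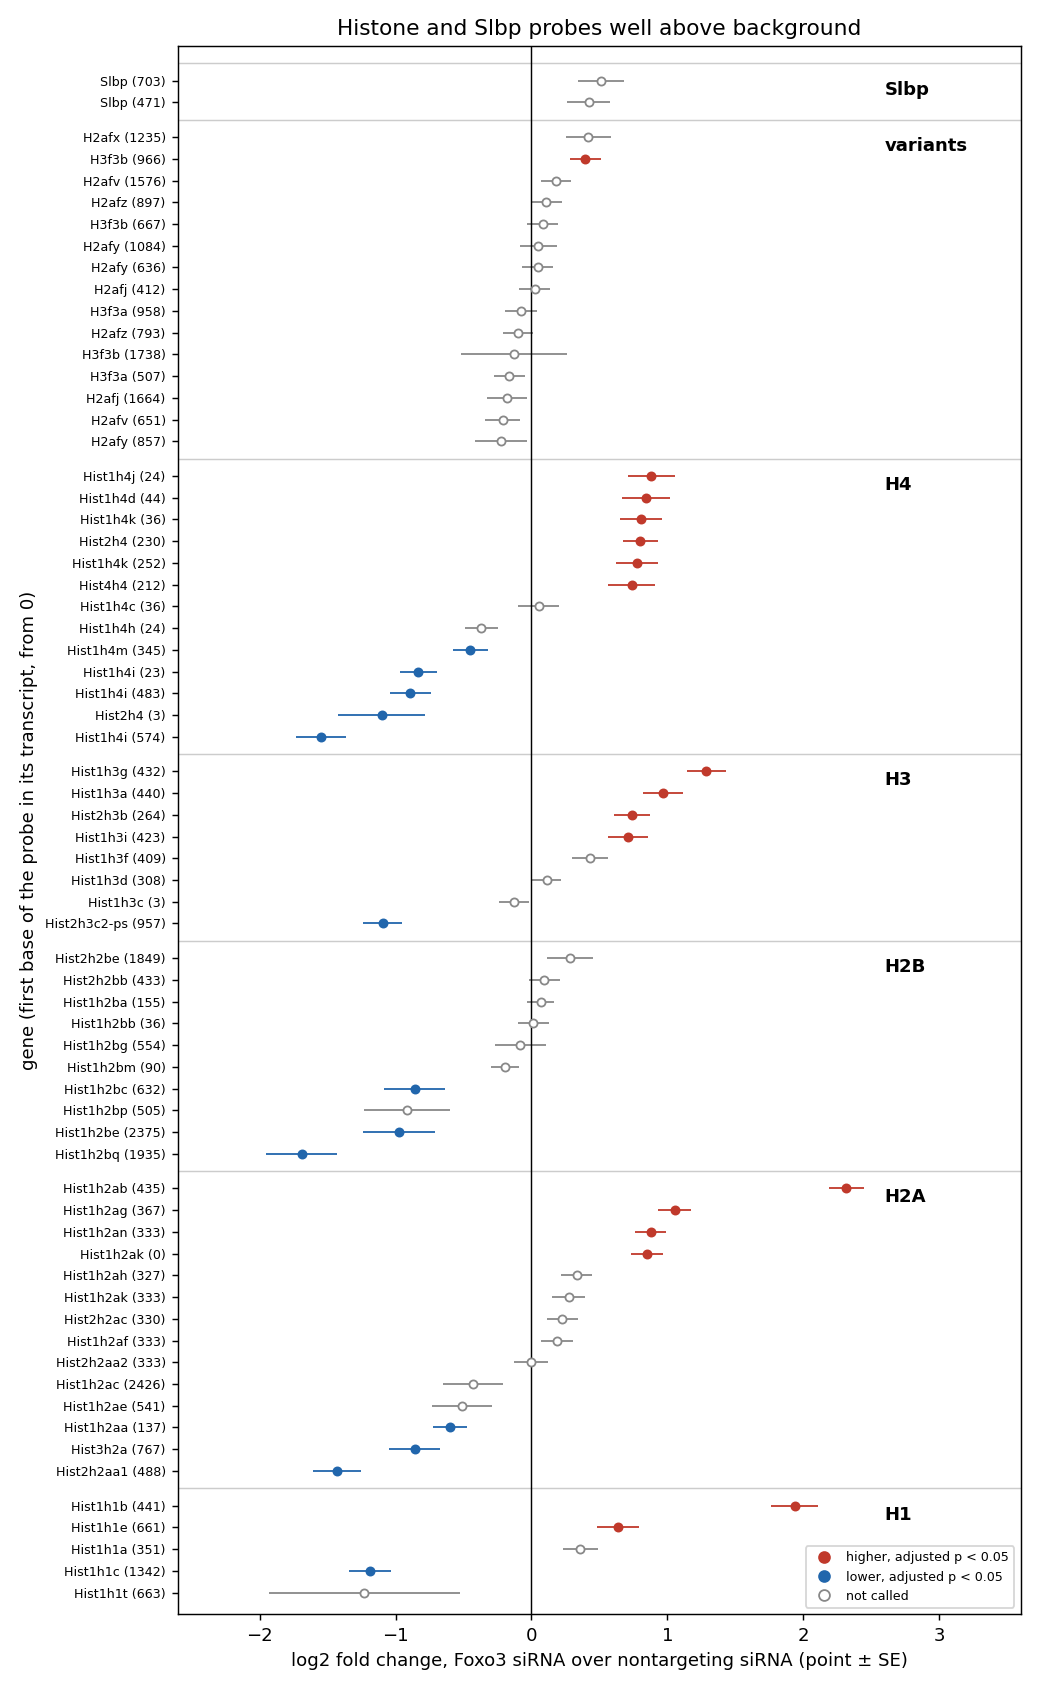
Log2 fold change (x axis; point ± SE, Foxo3 siRNA over nontargeting siRNA, 3 arrays each) of each of the 67 tested probes, grouped by histone type, with the first base of the probe in its transcript in parentheses on the y axis. Filled red points rose, filled blue points fell, and open points were not called; H1, H2A, H3 and H4 each hold both rises and falls, while the 10 H2B probes hold 3 falls and 0 rises.

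The direction of a small negative change depended on the scaling. The median over all tested probes was −0.15 with each array scaled to its 75th percentile, as used here, and 0.15 with arrays scaled to their median. Under the median scaling 77.2% of all calls were higher, against 48.5% here, and the replication-dependent probes gave 17 rises and 6 falls in place of 16 and 13. Among the histone probes, negative log2 fold changes smaller in size than the gap between these medians turned positive under the median scaling. Positive ones stayed positive. Row 2 of the slide held no nontargeting array, so a fit with slide row as a block gave the same log2 fold changes as row 1 alone, which sets Foxo3 siRNA replicate 1 against the 3 nontargeting arrays. That array was assumed to vary like the others. The block called 15 of the 67 probes and row 1 alone called 3, and row 1 values below are given without a test. Between Foxo3 siRNA replicates 2 and 3 and the nontargeting arrays, slide row and siRNA cannot be told apart.

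Among probes of the linker histones H1, 2 rose and 1 fell. Hist1h1b, known as H1.5, had scaled log2 signals of 4.15, 4.27 and 3.67 with Foxo3 siRNA against 2.05, 2.12 and 2.11. Every Foxo3 siRNA array stood above every nontargeting array, and the probe rose 3.83-fold (log2 fold change 1.94, SE 0.17, adjusted p = 0.0015). Within slide row 1 its log2 fold change was 2.06. Hist1h1e, or H1.4, read 5.16, 4.71 and 4.90 against 4.25, 4.18 and 4.44 and rose 1.56-fold (log2 fold change 0.64, adjusted p = 0.028). That call was lost without Foxo3 siRNA replicate 1 or 3, or without any of the nontargeting replicates, at log2 fold changes of 0.52 to 0.71. Hist1h1e was also not called with slide row as a block, at 0.88. Hist1h1c, or H1.2, went down: it read 5.77, 5.36 and 5.32 against 6.56, 6.70 and 6.76, without overlap. Its log2 fold change was −1.19 (SE 0.16, adjusted p = 0.0042), which left 43.8% of the nontargeting signal, and within slide row 1 it was −0.91. Hist1h1a was not called at 0.36 (adjusted p = 0.086). Hist1h1t, the testis H1, was not called at −1.23 (adjusted p = 0.23), with 1 outlier spot among the Foxo3 siRNA arrays left out and nontargeting replicate 3 at 1.22 against −1.07 and −0.86. Hist1h1d was not well above background on any nontargeting array and was not tested.

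Among 14 H2A probes 4 rose and 3 fell. Hist1h2ab had the largest rise of all 67 probes under the setting used here: it read 5.76, 5.54 and 5.49 with Foxo3 siRNA against 3.42, 3.25 and 3.17. This was a 4.98-fold rise (log2 fold change 2.32, SE 0.13, adjusted p = 0.00056), and within slide row 1 the log2 fold change was 2.48. Hist1h2ag read 8.45, 8.24 and 8.15 against 7.23, 7.24 and 7.21, a 2.08-fold rise (log2 fold change 1.05, SE 0.12, adjusted p = 0.0029). The 3 nontargeting arrays of Hist1h2ag lay closer together (SD 0.01) than the 3 Foxo3 siRNA arrays (SD 0.16). Hist1h2an rose by a log2 fold change of 0.88 (adjusted p = 0.0040), from 7.15, 7.12 and 7.15 to 8.16, 7.95 and 7.94. Hist1h2ak rose by 0.85 (adjusted p = 0.0050) at its probe at the transcript start.

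Hist2h2aa1 had the largest H2A fall. It read 5.89, 5.28 and 5.44 with Foxo3 siRNA against 7.08, 6.88 and 6.95, and 37.1% of the nontargeting signal was left (log2 fold change −1.43, SE 0.18, adjusted p = 0.0037). Within slide row 1 its log2 fold change was −1.07. Hist3h2a fell by a log2 fold change of 0.86 (adjusted p = 0.020), and the testis gene Hist1h2aa fell by 0.60 (adjusted p = 0.018). Neither was called under the median scaling, at −0.56 and −0.30, nor without Foxo3 siRNA replicate 2 or 3 or nontargeting replicate 2 or 3. Hist3h2a was also not called without nontargeting replicate 1. The brightest tested H2A probe of the clusters, Hist1h2ah, was not called at 0.33 (adjusted p = 0.077), with 8.996, 8.75 and 8.82 against 8.58, 8.47 and 8.51. Hist2h2ab was above background on 2 Foxo3 siRNA arrays and on 0 nontargeting arrays, and was not tested.

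Of 10 tested H2B probes, 0 rose, 3 fell and 7 were not called. All 3 falls were among the 6 probes that read past the stem-loop, by the division given below, and of the 4 probes up to it 0 were called. Hist1h2bq read −2.67, −3.65 and −3.44 with Foxo3 siRNA against −1.74, −1.43 and −1.53. Its log2 fold change was −1.69 (SE 0.26, adjusted p = 0.0071). Only 2 of the 3 Foxo3 siRNA arrays were well above background. The Hist1h2bq probe thus passed the filter through the nontargeting group, where its signal was higher. It was not called in the authors' deposited table (−1.32). Within slide row 1 its log2 fold change was −1.11. Hist1h2be fell by 0.97 (adjusted p = 0.040), from 0.36, −0.24 and −0.49 to −0.72, −1.21 and −1.36. Hist1h2bc fell by 0.86 (adjusted p = 0.035), from 4.88, 4.78 and 4.99 to 4.52, 3.85 and 3.71. The last 2 were not called under the median scaling (−0.67 and −0.56), with slide row as a block (−0.60 and −0.37), or without Foxo3 siRNA replicate 2 or 3 or nontargeting replicate 1 or 2. Hist1h2bc also lost its call without nontargeting replicate 3. The 7 others included the testis gene Hist1h2ba at 0.067 and Hist1h2bp at −0.92 (adjusted p = 0.077). Hist3h2ba and Hist3h2bb-ps were not tested for low signal.

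Of 8 H3 probes 4 rose. Hist1h3g read 0.04, 0.30 and 0.05 with Foxo3 siRNA against −0.95, −1.27 and −1.25, a 2.44-fold rise (log2 fold change 1.29, SE 0.14, adjusted p = 0.0027). Within slide row 1 its log2 fold change was 1.20. Hist1h3a read −0.46, −0.22 and −0.06 against −1.15, −1.39 and −1.09 and rose by 0.97 (adjusted p = 0.0072). The other risers were Hist2h3b at 0.74 and Hist1h3i at 0.71. The groups did not overlap for 7 of the 8 H3 probes, called or not, beside 49.3% of all tested probes. The Hist2h3b call was lost without nontargeting replicate 2. With slide row as a block Hist1h3a, Hist2h3b and Hist1h3i were not called, at 0.76, 0.80 and 0.84. A pseudogene, Hist2h3c2-ps, fell by 1.10 (adjusted p = 0.0044), from 0.15, 0.20 and 0.31 to −0.99, −0.62 and −1.02. The brightest H3 probe, Hist1h3d, was not called at 0.11, with 6.29, 6.28 and 6.16 against 6.18, 6.16 and 6.05.

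H4 had the most calls, with 6 of 13 probes up and 5 down. The risers were close in size: Hist1h4j at a log2 fold change of 0.88, Hist1h4d at 0.84, Hist1h4k at 0.81 and 0.78 by 2 probes, Hist2h4 at 0.80, and Hist4h4 at 0.74. Hist2h4 read 7.30, 7.06 and 7.04 against 6.45, 6.30 and 6.24 (adjusted p = 0.0074), without overlap. Hist1h4j and the first Hist1h4k probe lost their calls without nontargeting replicate 2, as did Hist1h4j without nontargeting replicate 3. With slide row as a block Hist1h4j and Hist4h4 were not called, at 1.10 and 0.97. Hist1h4i was the gene that fell at every probe under the setting used here. Its probe farthest along the transcript read 2.54, 2.23 and 1.97 with Foxo3 siRNA against 3.85, 3.59 and 3.95, a fall by 1.55 (SE 0.18, adjusted p = 0.0031). The other 2 Hist1h4i probes fell by 0.89 and 0.83. These 2 were not called under the median scaling (−0.59 and −0.53) or with slide row as a block (−0.73 and −0.76). Nor were they called in the authors' deposited table (−0.90 and −0.84). Hist1h4m fell by 0.45 (adjusted p = 0.046), and a second Hist2h4 probe, near the transcript start, fell by 1.10 (adjusted p = 0.048) with 2 of the 3 Foxo3 siRNA arrays above background. Under the median scaling Hist1h4m was not called at −0.15, and with slide row as a block neither was called (−0.43 and −1.36). Hist1h4c and Hist1h4h were not called, at 0.053 and −0.37.

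**Figure D2:**
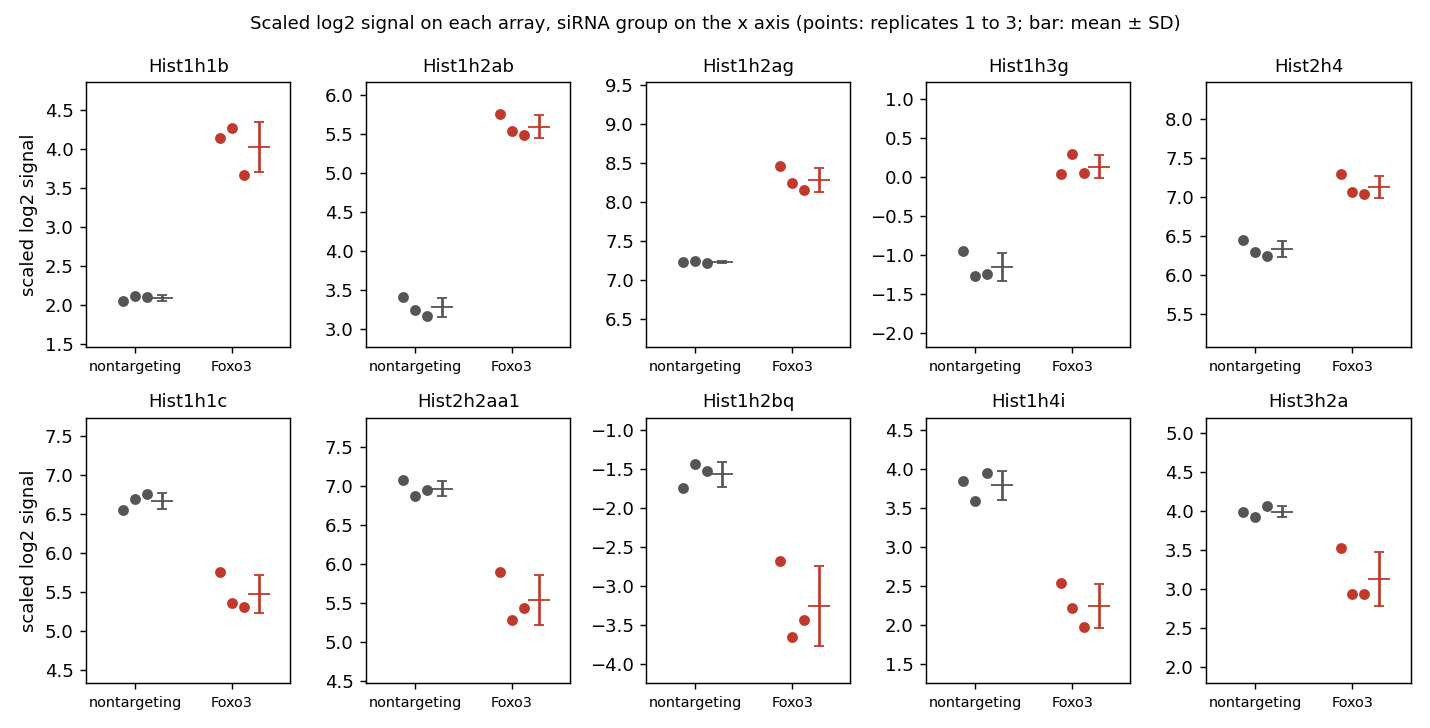
Scaled log2 signal (y axis, with the same span in each panel) on each array for 10 named probes, with the siRNA group on the x axis, points for replicates 1 to 3 and a bar for the mean ± SD. The top row holds 5 genes that rose and the bottom row 5 that fell (the Hist1h4i probe is the probe farthest along its transcript), and in every panel the 3 Foxo3 siRNA points lie apart from the 3 nontargeting points. The panels were picked from called probes. Hist1h2bq passed the background filter only through the nontargeting group.

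The position of the probe split the replication-dependent probes by direction. A probe was counted as past the stem-loop when it began beyond the last stem-loop base seen in a probe of its type (transcript base 510 for H2A, 487 for H2B, 497 for H3 and 399 for H4), beyond base 1000 for H1, or when the stem-loop lay within its first 30 bases. This division was made after the values had been seen, and it has no test. No H1 probe contained a stem-loop, so base 1000 was set without one. For other probes that contained none, the gene's own stem-loop was not located. Of 14 tested probes past the stem-loop, 0 rose and 9 fell, and 13 had a negative log2 fold change, the exception being Hist2h2be at 0.28. Of 36 tested probes up to the stem-loop, 16 rose and 4 fell. The medians were −0.90 and 0.35, against −0.60 and 0.65 under the median scaling and −0.53 and 0.44 with slide row as a block. The 4 that fell were Hist1h2aa, Hist1h4m and the early probes of Hist1h4i and Hist2h4. Under the median scaling the counts were 0 and 5 past the stem-loop, and 17 and 1 up to it. With the filter on all 6 arrays, 11 probes past it gave 0 and 9, and 33 up to it gave 19 and 4. Slide row as a block, which rests on 1 Foxo3 siRNA array, gave 0 and 5, and 10 and 0.

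**Figure D3:**
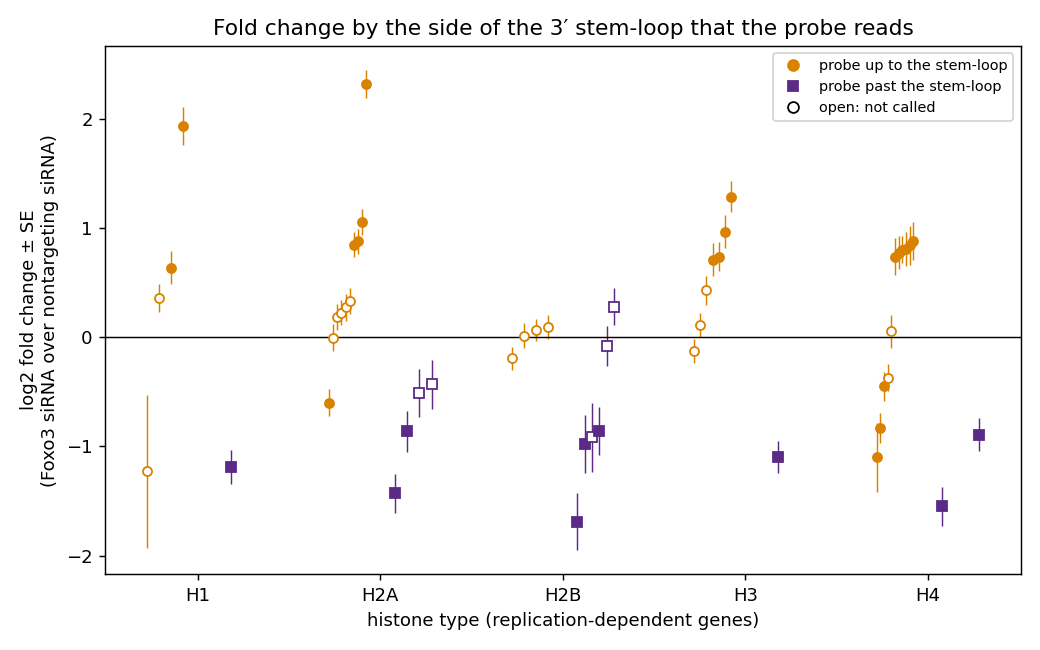
Log2 fold change (y axis, point ± SE) of the 50 tested replication-dependent probes by histone type (x axis) and by side of the stem-loop. The side is the one assigned to each probe by the division in the text. Squares are the 14 probes past the stem-loop, of which 0 rose and 9 fell; circles are the 36 probes up to it, of which 16 rose and 4 fell; open symbols were not called.

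Base composition and signal went with this division. The probes past the stem-loop had a median GC content of 40.0%, and those up to it 55.0%. Among probes of 45% to 60% GC, 6 past the stem-loop gave 0 rises and 4 falls with a median of −0.93, and 29 up to it gave 11 rises and 4 falls with a median of 0.19. The median scaled log2 signal was −0.17 over the probes past the stem-loop and 3.25 over those up to it, and 3 of 14 and 3 of 36 missed background on some Foxo3 siRNA array. The part of signal, and of base composition beyond these counts, was not tested.

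Probes that lie near each other could differ in call or in direction. On mouse build mm9, the Hist2h2aa1 probe lay at chr3:96049949-96050008, 112 bases from the start of the Hist2h2aa2 probe at chr3:96049837-96049896. The Hist2h2aa2 probe, which reads the end of the coding sequence, was not called: it had 8.79, 8.52 and 8.57 with Foxo3 siRNA against 8.66, 8.54 and 8.69, a log2 fold change of −0.0036 (SE 0.12, adjusted p = 0.98). The Hist2h2aa1 probe, which reads past the stem-loop, fell by 1.43. The Hist2h4 probes, at transcript bases 3 and 230, gave −1.10 and 0.80. The early one was dim (mean scaled log2 signal −2.96), with 2 of the 3 Foxo3 siRNA arrays above background. Of the 2 Hist1h2ak probes the early one rose by 0.85, and the probe at the end of the coding sequence was not called at 0.27. The calls given to gene names in this family are therefore calls of probes.

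Copies of a histone gene share most of their coding sequence, and 15 of the 55 replication-dependent probes named several RefSeq transcripts. The 4 H2A probes below read the same 60 bases at the end of the coding sequence, stop codon included, and are shown because copies so alike may hybridise to each other's probes. Capitals mark the 10 positions at which they are not all the same.
Hist1h2af: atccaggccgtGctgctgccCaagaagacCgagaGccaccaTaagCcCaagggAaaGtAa
Hist1h2ak: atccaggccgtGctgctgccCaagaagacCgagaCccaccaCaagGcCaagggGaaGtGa
Hist1h2an: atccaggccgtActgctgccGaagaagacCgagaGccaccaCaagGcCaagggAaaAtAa
Hist2h2aa2: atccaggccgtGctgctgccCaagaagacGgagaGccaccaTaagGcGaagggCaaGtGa
Pairs of these differed at 5 to 8 of 60 bases, and Hist1h2an and Hist2h2aa2 differed at 8. Hist1h2an rose by a log2 fold change of 0.88, while Hist1h2af (0.19), Hist1h2ak (0.27) and Hist2h2aa2 (−0.0036) were not called. Cross-hybridisation was not tested.

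A pair of H4 probes reads the same coding stretch in Hist1h4c and Hist1h4k and differs at 8 of 60 bases, again in capitals.
Hist1h4c: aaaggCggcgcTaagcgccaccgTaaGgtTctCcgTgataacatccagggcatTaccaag
Hist1h4k: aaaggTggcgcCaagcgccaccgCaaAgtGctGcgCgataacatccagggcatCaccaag
Hist1h4c read 1.41, 0.97 and 1.20 with Foxo3 siRNA against 1.23, 0.99 and 1.20, and the groups overlapped. Hist1h4k read 4.30, 3.997 and 3.84 against 3.38, 3.12 and 3.21, without overlap, and rose by 0.81 (SE 0.16, adjusted p = 0.014).

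Rises and falls were interspersed along the gene clusters. Of the Hist1 cluster on chromosome 13, 39 probes were tested, and 13 rose and 9 fell. The Hist2 cluster gave 2 rises and 3 falls among 9, Hist3 gave 1 fall from 1 probe and Hist4 gave 1 rise from 1 probe. The Hist1 probes that map as a single block spanned chr13:21814057-24026527 on mm9, and their 18 called genes changed direction 7 times in order along it. The Hist1h4d probe (rose by 0.84) lay 2.04 kb from the Hist1h2be probe (fell by 0.97). By the division above, the former reads up to the stem-loop and the latter past it. The Hist1h1c probe at chr13:23832018-23832077, past the stem-loop, fell. The Hist1h2ab probe at chr13:23843392-23843451, up to the stem-loop, rose. Probes of Hist1h3c and Hist1h2bb, which were not called, lay between them.

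The promoters of an H1 gene whose probe rose, an H1 gene whose probe fell and the H2A gene whose probe rose most are shown for their shared boxes. They are the 150 bases before the transcript start in RefSeq's GRCm38.p6 table, at chr13:21780626-21780775 on the minus strand (Hist1h1b, now H1f5), chr13:23738657-23738806 on the plus strand (Hist1h1c, now H1f2) and chr13:23750938-23751087 on the plus strand (Hist1h2ab, now H2ac4). Capitals mark TATAAA (the TATA box), CCAAT (the CCAAT box), the H1 box AAACACA and the octamer that Oct-1 binds, ATTTGCAT, each on either strand.
Hist1h1b: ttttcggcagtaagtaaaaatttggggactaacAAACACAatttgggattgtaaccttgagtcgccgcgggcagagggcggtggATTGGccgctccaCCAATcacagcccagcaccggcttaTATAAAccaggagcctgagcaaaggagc
Hist1h1c: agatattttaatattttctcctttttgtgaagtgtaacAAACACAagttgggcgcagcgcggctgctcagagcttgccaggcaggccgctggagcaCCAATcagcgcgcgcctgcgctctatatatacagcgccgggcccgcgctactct
Hist1h2ab: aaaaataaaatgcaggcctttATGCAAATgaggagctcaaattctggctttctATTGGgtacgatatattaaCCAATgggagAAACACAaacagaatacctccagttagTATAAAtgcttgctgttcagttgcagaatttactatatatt
Both H1 promoters held the H1 box and CCAAT. The Hist1h1c probe reads past the stem-loop and the Hist1h1b probe up to it.

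RefSeq promoters of 250 bases before to 50 after the start were matched for 42 replication-dependent genes. CCAAT was found in 36 of them (85.7%) against 37.4% of all 32851 promoters. TATAAA was found in 26 (61.9%) against 13.6%. The octamer ATTTGCAT was found in 13 (31.0%) against 1.74%, and all 13 were H2A (7 of 14) or H2B (6 of 9) genes. The H1 box was found in 5 of 6 H1 genes against 7.18% of all promoters. TTTNNCGC, letters that E2F proteins bind, was found in 10 of 42 (23.8%) against 5.17%. The forkhead letters TGTTTAC were found in 1 of 42, Hist4h4, against 3.65%. TATAAA was found in 9 of 13 genes that rose, 4 of 8 that fell and 13 of 21 called neither way. The octamer was found in 1 of 13, 3 of 8 and 9 of 21. The genes called neither way include Hist1h1d, Hist2h2ab and Hist3h2ba, which were not tested and which hold TATAAA. Each match says only that the letters stand in the window.

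Variant histones were nearly without calls. H2afz, the H2A.Z found at active promoters, read 8.65, 8.51 and 8.59 with Foxo3 siRNA against 8.58, 8.68 and 8.78 (log2 fold change −0.10, SE 0.11, adjusted p = 0.50). H2afj read 9.003, 8.75 and 8.82 against 8.86, 8.81 and 8.82 (0.025, adjusted p = 0.88). The groups overlapped for both, and also for H2afv, a second H2A.Z gene, with 6.31, 6.19 and 6.07 against 6.24, 6.46 and 6.51 (−0.21, adjusted p = 0.24). These values are from the brightest probe of each gene. The dimmer probes were not called, at 0.11 for H2afz, −0.18 for H2afj and 0.18 for H2afv. The H2afj probes had mean scaled log2 signals of 8.84 and 0.90. H2afx, whose product is phosphorylated at DNA breaks, read 3.90, 3.92 and 3.55 against 3.19, 3.32 and 3.61 and was not called at 0.42 (SE 0.17, adjusted p = 0.11). H2afy, macroH2A1, was not called at 0.050 by its brightest probe, which read 0.76, 0.93 and 0.89 against 0.60, 0.99 and 0.85.

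H3f3a and H3f3b both encode H3.3, which is deposited outside replication. The brightest H3f3a probe read 6.94, 6.85 and 6.82 with Foxo3 siRNA against 6.94, 6.82 and 7.08 (log2 fold change −0.077, adjusted p = 0.62). The brightest H3f3b probe read 6.32, 6.42 and 6.31 against 6.20, 6.40 and 6.22 (0.081, adjusted p = 0.59). A dimmer H3f3b probe was the variant call: it read 3.89, 3.999 and 3.77 against 3.44, 3.53 and 3.51 and rose by 0.40 (adjusted p = 0.045), while the last H3f3b probe was not called at −0.13. That call was lost when any array was left out and under the median scaling. The sign of H2afz, H3f3a and H2afv turned under the median scaling (0.20, 0.23 and 0.093). H1f0, the linker histone of cells that have stopped dividing, and H1fx were not tested: H1f0 was well above background on 0 of 6 arrays, and H1fx on 2.

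Slbp, which binds the stem-loop, was not called by either probe. The first read 2.14, 2.43 and 2.44 with Foxo3 siRNA against 1.55, 2.07 and 1.86 (log2 fold change 0.51, SE 0.17, adjusted p = 0.070). The second read 1.53, 1.98 and 1.73 against 1.12, 1.42 and 1.44 (0.42, SE 0.16, adjusted p = 0.096). The first was called under the median scaling (0.82), with normexp background correction (0.51) and with the filter on all 6 arrays (0.51). The groups did not overlap for either probe, as for 49.3% of all tested probes. Within slide row 1 the log2 fold changes were 0.31 and 0.21.

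Genes of histone gene transcription and of histone mRNA processing and decay were tested by 39 probes: 5 rose, for 4 of 28 genes, and 2 fell, for 1 gene, where 12.3% of all tested probes rose and 13.1% fell. The median was 0.079. Ccne1, the cyclin E that activates Npat with Cdk2, rose by 1.20 (adjusted p = 0.0024) and 0.89 at its 2 probes. The first read −1.03, −0.80 and −0.85 with Foxo3 siRNA against −2.26, −2.05 and −1.99. Lsm11, a U7 snRNP protein, read −0.71, −0.85 and −1.11 against −2.08, −1.99 and −1.79 and rose by 1.06 (adjusted p = 0.0054). Cstf2, a cleavage factor, rose by 1.03 (adjusted p = 0.0053) at 1 probe and was not called at 0.59 and 0.13 by the others. Snrpd3, an Sm protein shared with U7, rose by 0.54 (adjusted p = 0.036). Fip1l1, a poly(A) polymerase partner, fell by 0.66 and 0.57. The Snrpd3 call, and that of the first Fip1l1 probe, was lost when most arrays were left out. Npat, the histone gene coactivator, was well above background on 0 of 6 arrays, and Casp8ap2, Cdk2, Lsm10 and Upf1 were not called (−0.064 and −0.17, 0.079, −0.14, and −0.23).

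Of 57 tested probes for 31 histone chaperone genes, 20 rose, for 12 genes, and 1 fell, beside 12.3% higher and 13.1% lower over all tested probes. The median was 0.33, beside −0.15 over all tested probes. Asf1b, which hands H3 and H4 to the assembly factors, read 2.62, 3.101 and 2.98 with Foxo3 siRNA against 0.63, 0.84 and 0.77, a 4.46-fold rise (log2 fold change 2.16, SE 0.16, adjusted p = 0.00090). Chaf1a, the large subunit of the replication-coupled assembly factor CAF-1, read 0.98, 1.45 and 1.56 against −0.47, −0.42 and −0.61, a 3.55-fold rise (1.83, SE 0.17, adjusted p = 0.0018). Within slide row 1 their log2 fold changes were 1.88 and 1.48.

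Hat1, which acetylates new H4, rose by 1.18 (adjusted p = 0.0023) at 1 probe, from 1.35, 1.62 and 1.46 to 2.63, 2.76 and 2.56, and was not called at 0.20 (adjusted p = 0.43) by its other probe. Nasp, a chaperone of soluble H3 and H4, rose by 1.08 and 0.75 at 2 probes, and its other probe was not called at −0.85. Anp32e, which removes H2A.Z, rose by 0.95 and 0.87. Mcm2 rose by 0.98, Nap1l1 by 0.54 to 0.78 at 3 probes, and Npm1 by 0.55 to 0.68 at 4, with a further Npm1 probe not called at 0.33. Asf1a (0.54), the CAF-1 subunit Chaf1b (0.44 and 0.39), Dnajc9 (0.26) and Tonsl (0.38) were not called. The chaperones of H3.3 were not called: Daxx had −0.16, Atrx −0.39, −0.26 and 0.11, and Hira 0.39 and −0.17. Srcap, which exchanges H2A.Z into nucleosomes, fell by 0.76 at 1 probe (adjusted p = 0.023), with 2 of the 3 Foxo3 siRNA arrays above background. That probe thus passed the filter through the nontargeting group, where its signal was higher. The other Srcap probe was not called at 0.056.

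**Figure D4:**
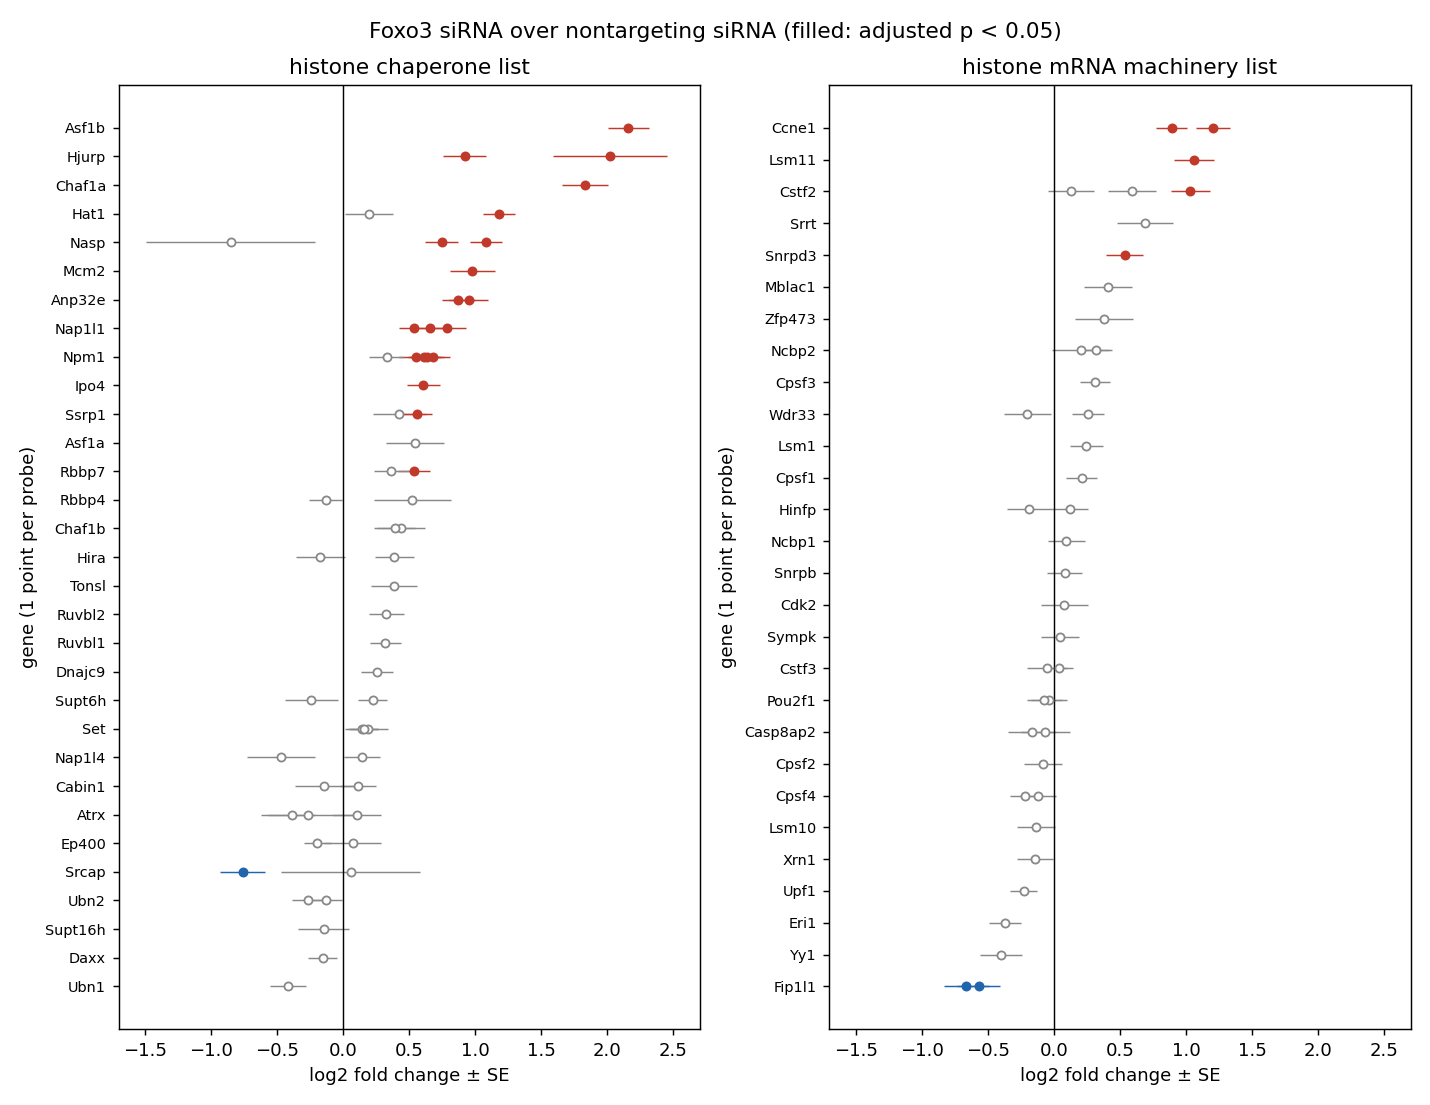
Log2 fold change (x axis, point ± SE) of the tested probes of the histone chaperone list (left) and of the histone mRNA machinery list (right), 1 row per gene and 1 point per probe. Filled points passed an adjusted p of 0.05: 20 chaperone probes rose and 1 fell, and 5 machinery probes rose and 2 fell.

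The authors' deposited table, fitted by limma per the submitters' processing notes, called 8 of the histone probes. In the authors' deposited table Hist1h2ab (2.32), Hist1h1b (1.92), Hist1h3g (1.19), Hist1h2ag (1.06) and Hist1h2an (0.92) were higher in log2 fold change. Hist1h4i (−1.51), Hist2h2aa1 (−1.37) and Hist1h1c (−1.11) were lower in the authors' deposited table. All 8 were called in the same direction here.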

How the data were processed

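RNA of 6 samples was measured on 1-colour Agilent mouse arrays. Per the file headers, the deposited spot intensity was made by Agilent Feature Extraction 10.7.3.1 with background subtracted and surrogate values where a signal did not exceed it; the designs' coordinates are on mm9. The deposited series table holds the authors' log2 fold change and p-value, made with limma per the submitters' processing notes; its normalization is not given in the sources used here. Control and outlier spots were left out, log2 signals were scaled by subtracting each array's 75th percentile, and spots of a probe were averaged. Probes well above background on all 3 arrays of a group were kept. Groups were compared by limma 3.58.1 in R 4.3.3 (lmFit and eBayes, two-sided, no covariates), which gives every adjusted p-value here (Benjamini-Hochberg over 26991 probes). The fit was tested on simulated data. The number of arrays limits the precision. Probes reading the same gene are not replicates of a condition.

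Members and lists were chosen with earlier results of these data known. Named probes are Slbp, the brightest probe of each variant, within each type the 3 that rose and the 3 that fell with the smallest adjusted p and the brightest, and up to 6 per list; other names were chosen after their values were seen. RefSeq symbols matched 57 of the 59 genes by transcript accession. Alternatives were another scaling, background correction, filter, gene rule, replicate or slide row block, leaving out each array, and the authors' table.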

Additional observations from a re-analysis of the deposited data

How the results depend on the processing

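Results are given as counts of called probes under each setting. With 75th percentile scaling 30 histone and Slbp probes were called, 29 of them replication-dependent (16 higher, 13 lower; 9 of the latter past the stem-loop and 4 up to it) and 1 variant, with 7 machinery and 21 chaperone probes, among 6857 in all. Probes past the stem-loop called higher stayed at 0 under every alternative. Without a filter on dim probes the counts were 634 in all, 2 histone probes (2 higher, 0 lower), 0 machinery and 3 chaperone; the RefSeq Foxo3 probe stayed at −2.42 but was no longer called. Slide row as a block gave 1871 in all, 15 histone probes (10 higher, 5 lower, these 5 past the stem-loop and 0 up to it), 0 variant, 3 machinery and 7 chaperone. Both this block and slide row 1 only set Foxo3 siRNA replicate 1 alone against the nontargeting arrays. Slide row 1 only gave 780 in all, 3 histone probes (3 higher, 0 lower), 0 machinery and 2 chaperone. The authors' deposited table gave 1116 in all, 8 histone probes (5 higher, 3 lower, past the stem-loop 3 and up to it 0), 0 machinery and 3 chaperone. Scaling to the median gave 6 lower (5 past, 1 up to) and 0 variant. The filter on all 6 arrays gave 11 machinery probes. Using 1 probe per gene gave 4 machinery, 11 chaperone, 0 variant and 2 lower up to the stem-loop.

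The replicate numbers did not pair the arrays: correlations of their deviations were 0.16, −0.31 and 0.13. The replicate block gave 6754 in all, 28 histone probes, 0 variant and 2 lower up to the stem-loop. The Slbp probe at 0.51 was called with that replicate block, with normexp (0.51), with the filter on all 6 arrays (0.51) and under the median scaling (0.82). Signs turned for H2afz (0.20), H3f3a (0.23) and H2afv (0.093) under the median scaling, for H2afj without Foxo3 siRNA replicate 1, and for H2afy without nontargeting replicate 1 and with slide row as a block or row 1 only (−0.050 each). Over the arrays left out H2afj ranged from −0.049 to 0.078 and H2afy from −0.056 to 0.14. Leaving out each array gave 2710 to 5919 probes in all, 15 to 28 histone probes, 8 to 15 higher, 7 to 14 lower (6 to 12 past and 1 to 2 up to the stem-loop), 0 variant, 4 to 8 machinery and 11 to 19 chaperone. The lowest histone, higher and chaperone counts came without nontargeting replicate 2; without nontargeting replicate 3 there were 18 histone calls and 10 higher. Lower calls fell to 7 without Foxo3 siRNA replicate 3 and 8 without replicate 2. Without Foxo3 siRNA replicate 3, which had the raised floor, 3780 probes were called in all. The cause of each of these changes was not tested. Leaving out an array also leaves fewer arrays in the fit, and the part of this was not tested either.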

Other observations

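Histone genes with names outside the chosen set gave 1 call among 4 tested probes. Cenpa, the H3 variant of centromeres, read 4.78, 4.504 and 4.48 with Foxo3 siRNA against 3.48, 3.51 and 3.25, without overlap. It rose by a log2 fold change of 1.18 (SE 0.14, adjusted p = 0.0032), a 2.26-fold rise. Hjurp, the chaperone that deposits Cenpa, rose by 0.92 (adjusted p = 0.011) at a probe that 2 of the 3 Foxo3 siRNA arrays measured well above background, and by 2.02 (adjusted p = 0.020) at another. The latter read −1.22, −1.35 and 0.27 against −2.74, −2.56 and −3.06, with Foxo3 siRNA replicate 3 above the other two. H2afy2, macroH2A2, was not called at −0.45, and H1foo and H2afb1 were not called at −0.40 and −1.20. Among the 15 erythroid marker probes 1 rose, for the transferrin receptor Tfrc at 0.61, and 1 fell, for the beta-globin Hbb-b2 at −0.58. Over all tested probes 12.3% rose and 13.1% fell. The other Tfrc probes were not called, at 0.36 and 0.35.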
